A study of Arabidopsis thaliana with 6 samples.

Results

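The jasmonate genes described here are 31 *Arabidopsis thaliana* loci out of the 32678 genes listed for each library. They were chosen by locus identifier for their known roles and not by a threshold on expression, although earlier results of these data were known: 10 genes of jasmonate synthesis, 1 of jasmonate methylation, the receptor gene *COI1*, 11 JAZ repressors, 3 MYC activators, 3 stamen MYB genes and 2 response genes. Their expression was measured by RNA sequencing in *bpcV*, the quintuple mutant *bpc1-2 bpc2 bpc3 bpc4 bpc6*, and in wild type. Both genotypes are in the Col-0 background, were left untreated and grew with 16 h light and 8 h dark. Each had 3 libraries of whole inflorescence tips, whose oldest flowers were at stage 12, a mixture of organs and stages whose plants per library and age are not given in the sources used here. In such a mixture, fewer cells of a type and less RNA per cell cannot be told apart. Libraries held 16196042 to 19951509 expected counts in *bpcV* and 17777219 to 21455150 in wild type. Of the mutated genes, *BPC1*, *BPC2* and *BPC6* had 0.33 to 2.60 TPM (transcript abundance scaled for gene length and library) in *bpcV* and 21.6 to 53.8 TPM in wild type, and *BPC4* was 1.54-fold lower in *bpcV*. *BPC3* was not lower: its estimate was above 0, at a log2 fold change of 0.38, and did not pass the test (edgeR, adjusted p = 0.292). The flower identity markers *LFY*, *AP1*, *AP3*, *PI*, *AG* and *SEP3* summed to 776 to 1010 TPM in *bpcV* and 786 to 795 TPM in wild type. None of them passed the test used here (edgeR, adjusted p of 0.01 or less). *AP1*, *AP3* and *AG* were higher in every *bpcV* library than in any wild type library, as were 18.2% of all genes tested. *AP1* had a log2 fold change of 0.48 and an adjusted p of 0.0154. Storage genes of the maturing seed were at 0.41 TPM or less in sum.

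Jasmonates are lipid hormones made from linolenic acid, which a lipase releases in the plastid and which lipoxygenase (LOX), allene oxide synthase (AOS), allene oxide cyclase (AOC) and the peroxisomal reductase OPR3 carry towards jasmonic acid. The isoleucine conjugate of jasmonic acid binds the F-box protein COI1 together with a JAZ repressor, the JAZ protein is degraded, and transcription factors such as MYC2 and the stamen proteins MYB21 and MYB24 are freed. Mutants that lack the hormone or its receptor are male sterile, with short filaments, late anther opening and poor pollen, so the pathway is known in flowers chiefly for stamen maturation. BPC proteins are transcription factors that bind GA-rich DNA.

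In *bpcV* inflorescences, 4 synthesis genes were lower than in wild type, *DAD1*, *LOX3*, *AOC2* and *AOC3*, and no jasmonate gene was higher at the same threshold. Genotypes were compared by edgeR's quasi-likelihood test with Benjamini-Hochberg adjustment over 20813 genes and a threshold of 0.01. The study used the same threshold but called more genes in both directions. The calls given here are therefore not those of its own comparison, and the cause of the difference was not tested. Of the 31 genes 30 had enough counts to be tested, and the 4 called stand beside 3.89% of all genes called in either direction, 2.23% lower and 1.66% higher. At an adjusted p of 0.05 or less, 6 of the genes were lower and 5 higher in *bpcV*, against 6.35% and 5.69% of all genes. At an unadjusted p under 0.05, 8 were lower and 6 higher, against 28.3% of all genes in either direction, and DESeq2 called 11, of which 5 were higher, against 8.72% of all genes. Counts scaled to the size of the library (CPM) did not overlap between genotypes for 16 genes, 10 lower and 6 higher, against 35.8% of all genes tested, 17.6% lower and 18.2% higher. The estimate was below 0 for 20 of the 30 genes, with a median log2 fold change of -0.16 beside 0.01 for all genes tested.

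**Figure D1:**
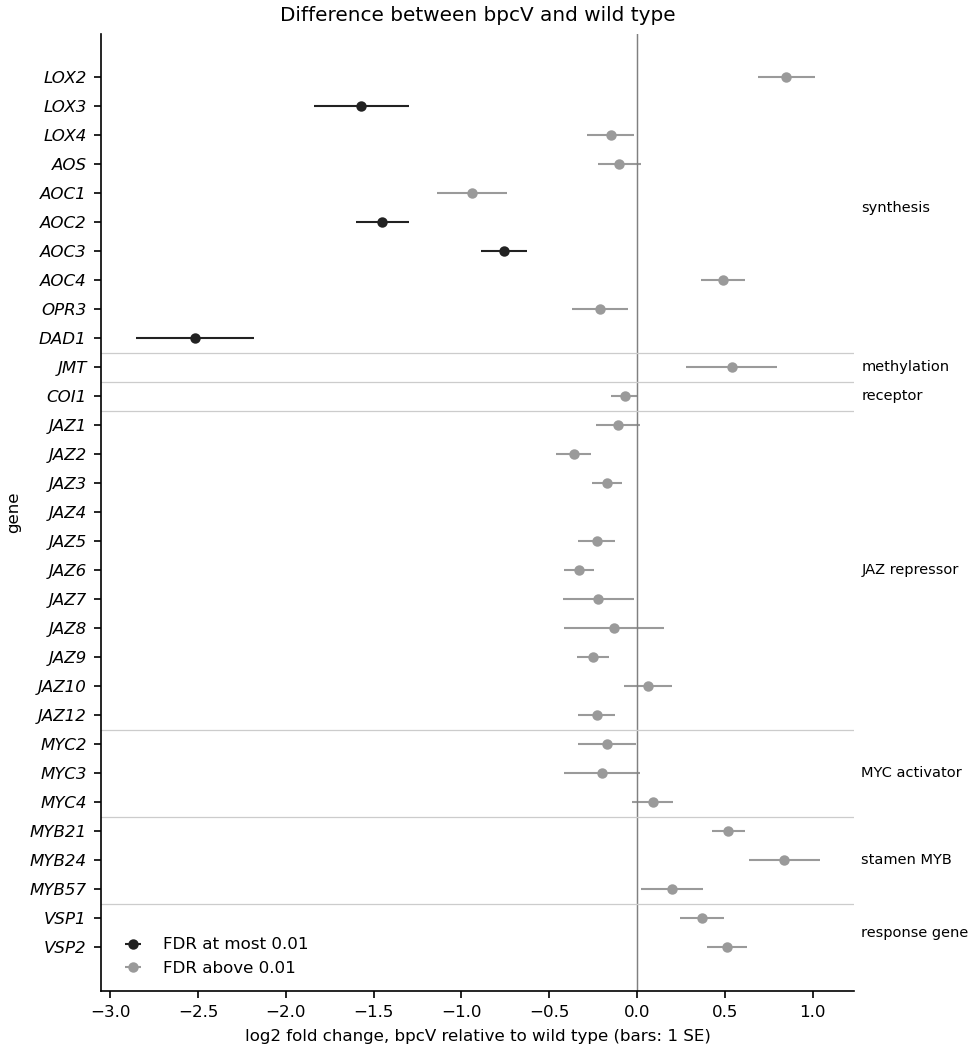
Log2 fold change of each jasmonate gene in *bpcV* relative to wild type (x axis), ordered by role down the page, with bars of 1 standard error. Black points mark the 4 synthesis genes with an adjusted p of 0.01 or less, which lie between -2.52 and -0.76, and *JAZ4* was not tested and has no point.

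*DAD1* (AT2G44810), the plastid phospholipase A1 that releases linolenic acid in the stamen filament, had the lowest ratio of the 31 genes. It had 0.77, 1.51 and 0.55 CPM in the *bpcV* libraries 1 to 3, against 6.47, 5.51 and 4.24 CPM in the wild type libraries 1 to 3. The highest *bpcV* library was thus below the lowest wild type library, on 13, 27 and 11 counts in *bpcV* and 137, 96 and 78 counts in wild type. Means were 0.946 ± 0.503 CPM in *bpcV* and 5.41 ± 1.12 CPM in wild type (SD, n = 3 libraries each), a log2 fold change of -2.52 ± 0.34 (SE) with an adjusted p of 0.00334, or 5.71-fold in CPM. The adjusted p was 0.0187, 0.0194, 0.0102 and 0.0147 without wild type replicate 1, 2 or 3 or *bpcV* replicate 3, and so missed the threshold in these 4 refits. The gene lies at chr2:18478374-18480457 on the plus strand of TAIR10.1 with no annotated gene overlapping it. Its upstream sequence is shown because it is the most reduced gene of the pathway: the 250 bases before the annotated start, chr2:18478124-18478373, held neither the GA repeat GAGAGA nor the G-box CACGTG, the letters MYC proteins are known to bind, on either strand. Other GA-rich letters, including the C-box that the study names as the BPC binding motif, were not searched for. The letters shown do hold a GA-rich run, agaaagaaa, and whether it is a C-box was not tested.
*DAD1* promoter: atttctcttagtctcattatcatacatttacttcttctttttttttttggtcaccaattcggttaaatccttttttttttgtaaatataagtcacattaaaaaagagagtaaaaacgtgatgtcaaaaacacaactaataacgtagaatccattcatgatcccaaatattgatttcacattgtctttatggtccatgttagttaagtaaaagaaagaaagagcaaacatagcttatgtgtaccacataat

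*LOX3* (AT1G17420), a 13-lipoxygenase that acts with LOX4 in anther maturation, was the second lipid step to be lower. It had 98.8, 202 and 122 CPM in *bpcV*, against 536, 368 and 352 CPM in wild type. All *bpcV* libraries were below all wild type libraries, with *bpcV* replicate 2 nearest to wild type. The log2 fold change was -1.57 ± 0.27 (SE) with an adjusted p of 0.00938, close to the threshold, or 2.97-fold in CPM. Without wild type replicate 1, 2 or 3 or *bpcV* replicate 3 the adjusted p was 0.0376, 0.0338, 0.0264 and 0.0416. The gene lies at chr1:5977323-5981521 on the plus strand, and the 250 bases before it, chr1:5977073-5977322, are shown for comparison with *DAD1* and also held neither GAGAGA nor CACGTG. The run agaaagaaa is in these letters too, and C-boxes were not searched for here either.
*LOX3* promoter: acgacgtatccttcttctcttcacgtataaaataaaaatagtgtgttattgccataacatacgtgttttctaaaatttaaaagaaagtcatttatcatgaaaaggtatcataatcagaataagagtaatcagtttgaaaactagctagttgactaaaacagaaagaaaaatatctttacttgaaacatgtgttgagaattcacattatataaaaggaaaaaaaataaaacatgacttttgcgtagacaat

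The other lipoxygenases did not follow *LOX3*. *LOX2* (AT3G45140), the most abundant lipoxygenase here and best known from wounded leaves, had 2270, 3565 and 2736 CPM in *bpcV*, against 1606, 1588 and 1568 CPM in wild type. Its genotypes did not overlap, the 3 wild type libraries lay within a coefficient of variation of 1.17%, and *bpcV* replicate 2 stood highest. The estimate of 0.85 ± 0.16 (SE) had an adjusted p of 0.0140, which was 0.00180 without *bpcV* replicate 1. *LOX4* (AT1G72520), the close relative of *LOX3*, ranged between 43.0 and 59.9 CPM in *bpcV* and between 50.8 and 62.4 CPM in wild type, with an adjusted p of 0.498. Per unit of length, *LOX3* made up 4.34 ± 0.63% of the summed TPM of *LOX2*, *LOX3* and *LOX4* in *bpcV* and 19.5 ± 3.5% in wild type (SD, n = 3), while *LOX2* made up 94.1 ± 0.5% in *bpcV* and 78.0 ± 3.6% in wild type. *LOX4* made up 1.56 ± 0.10% in *bpcV* and 2.56 ± 0.13% in wild type, although its CPM overlapped, so a share also depends on the other genes of the sum. The shares of all 3 genes did not overlap between genotypes and are given as a description, without a test. An exact two-sided permutation test of 3 libraries against 3 cannot go below p = 0.1.

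Allene oxide synthase is encoded by the single gene *AOS* (AT5G42650). It had 28.0, 38.8 and 31.7 CPM in *bpcV*, against 37.1, 35.0 and 33.4 CPM in wild type, groups that overlapped, with a log2 fold change of -0.10 ± 0.12 (SE) and an adjusted p of 0.648. The next enzyme, AOC, sets the stereochemistry of the jasmonate precursor and has 4 genes, of which *AOC1*, *AOC2* and *AOC3* stand in a row on chromosome 3, all on the plus strand, with 1330 and 1088 bases between neighbours, whereas *AOC4* is on chromosome 1. Their sequences are alike, but the expected counts of all 4 were whole numbers in every library.

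*AOC2* (AT3G25770) had 9.28, 10.6 and 9.65 CPM in *bpcV*, against 23.1, 33.1 and 24.4 CPM in wild type. The genotypes were far apart and the *bpcV* libraries differed little among themselves. The log2 fold change was -1.45 ± 0.15 (SE) with an adjusted p of 0.00122, the smallest of the 30 genes. *AOC3* (AT3G25780) had 16.1, 15.7 and 14.9 CPM in *bpcV*, against 27.4, 30.4 and 21.6 CPM in wild type, again without overlap. Its log2 fold change was -0.76 ± 0.13 (SE) with an adjusted p of 0.00916, which was 0.0456, 0.0404, 0.0215 and 0.0387 without wild type replicate 1 or 2 or *bpcV* replicate 2 or 3.

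*AOC1* (AT3G25760), the first gene of the row and its most abundant, had 28.0, 46.4 and 32.5 CPM in *bpcV*, against 80.6, 67.3 and 56.6 CPM in wild type. The groups did not overlap, but the estimate of -0.94 ± 0.20 (SE) had an adjusted p of 0.0200. Without *bpcV* replicate 2, the nearest to wild type, it was 0.00589. *AOC4* (AT1G13280), outside the row, lay on the other side with 185, 132 and 161 CPM in *bpcV*, against 109, 116 and 116 CPM in wild type. These did not overlap either, and the estimate of 0.49 ± 0.12 (SE) had an adjusted p of 0.0390, or 0.00808 without *bpcV* replicate 2.

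Within the summed TPM of the AOC family, *AOC4* held 72.2, 57.6 and 67.9% in *bpcV*, against 38.2, 39.7 and 45.8% in wild type, and the highest wild type share was below the lowest of *bpcV*, a description without a test. The sum itself was 264 ± 17.7 TPM in *bpcV* and 302 ± 17.0 TPM in wild type (SD, n = 3), with overlap. *AOC2* took 5.60 ± 0.69% of the sum in *bpcV* and 13.3 ± 2.2% in wild type.

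**Figure D2:**
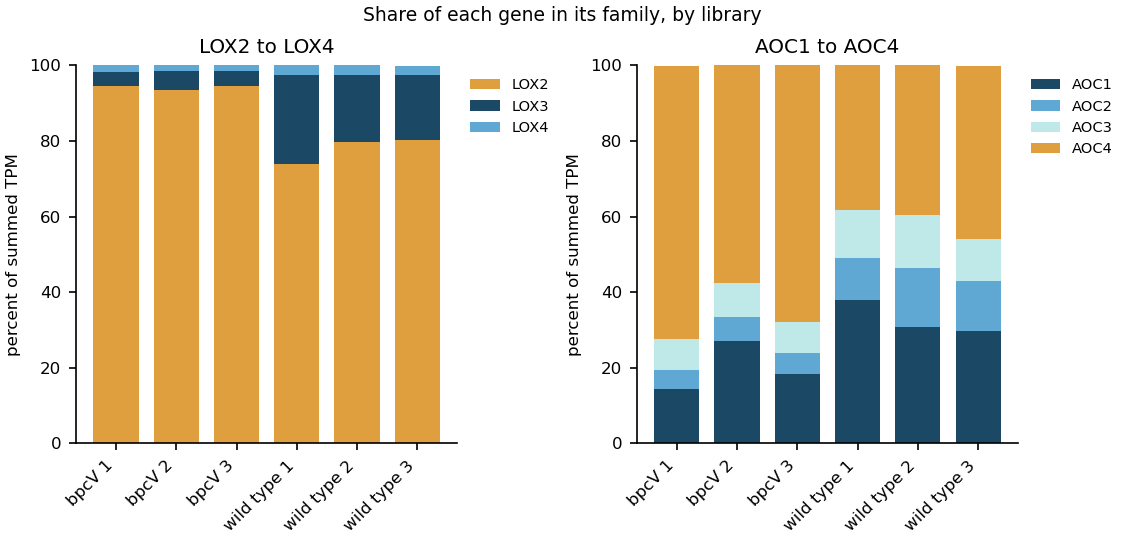
Percent of the summed TPM of *LOX2* to *LOX4* (left) and of *AOC1* to *AOC4* (right) held by each gene (y axis), with 1 stacked bar per library, the *bpcV* libraries left of the wild type libraries. *LOX3* held 3.93 to 5.06% in *bpcV* and 17.2 to 23.5% in wild type, and *AOC4* held 57.6 to 72.2% in *bpcV* and 38.2 to 45.8% in wild type.

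*OPR3* (AT2G06050), the reductase whose loss makes jasmonate-deficient male sterile plants, had 119, 170 and 128 CPM in *bpcV*, against 190, 147 and 144 CPM in wild type. The groups overlapped, and the log2 fold change of -0.21 ± 0.16 (SE) had an adjusted p of 0.438. *JMT* (AT1G19640), which methylates jasmonic acid to its volatile ester, had 36.9, 82.0 and 47.9 CPM in *bpcV*, against 33.7, 42.8 and 38.5 CPM in wild type. Its groups overlapped, *bpcV* replicate 2 stood well above the other 5 libraries, and the adjusted p was 0.219. Among the 10 synthesis genes, 4 were thus called lower and none higher by edgeR, against 3.89% of all genes in either direction. At an unadjusted p under 0.05, 5 were lower and 2 higher, against 28.3% of all genes, and DESeq2 also called *LOX2*, *AOC1* and *AOC4*.

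**Figure D3:**
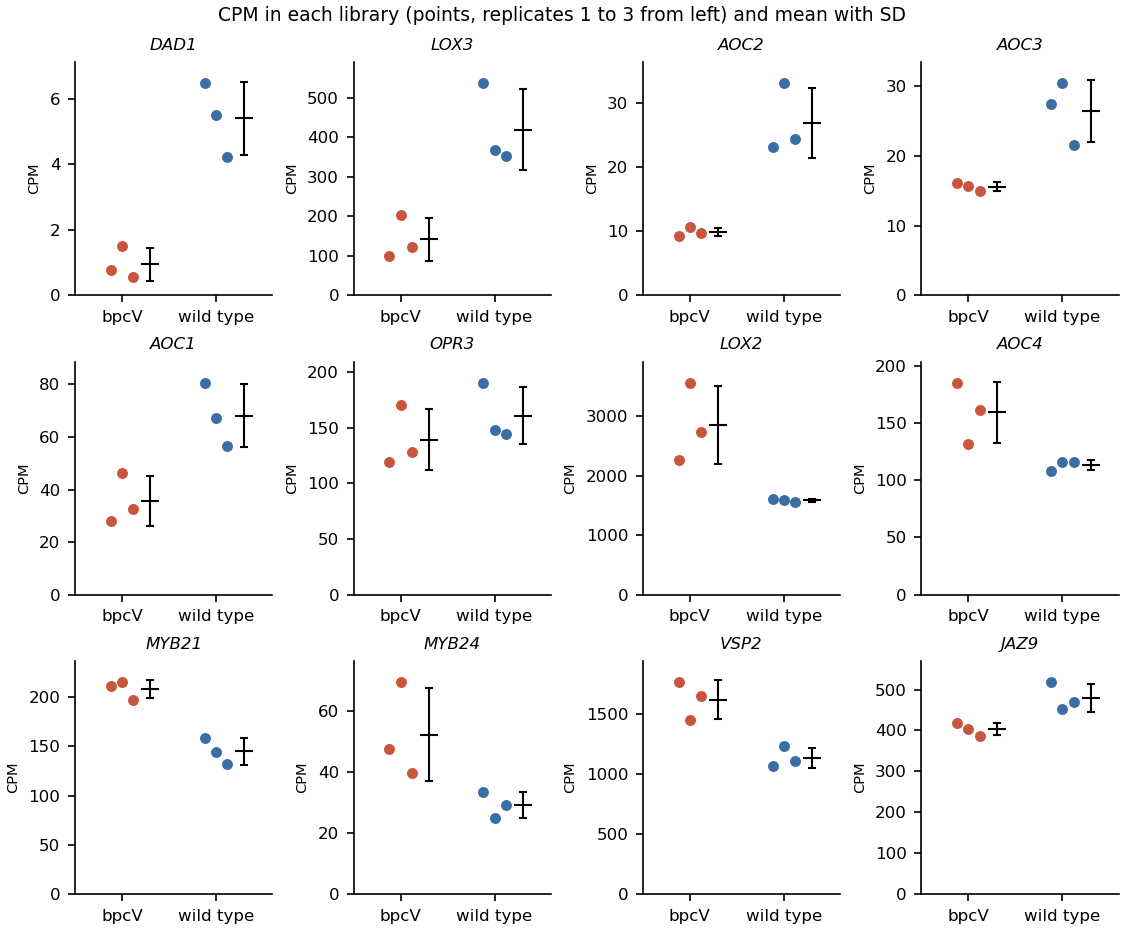
CPM (y axis of each panel, starting at 0) of 12 jasmonate genes in the 3 *bpcV* libraries (left) and the 3 wild type libraries (right), with the mean and SD beside the points. The panels are a selection: the genotypes are apart in 11 of them, against 16 of the 30 genes tested and 35.8% of all genes. They overlap for *OPR3*, where *bpcV* spans 119 to 170 and wild type 144 to 190 CPM.

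*COI1* (AT2G39940), the receptor gene, varied least among the *bpcV* libraries of the 30 genes tested, with a coefficient of variation of 2.11%. It had 33.5, 34.9 and 34.0 CPM in *bpcV*, against 36.1, 37.4 and 34.1 CPM in wild type, which overlapped. The log2 fold change was -0.07 ± 0.08 (SE) and the adjusted p 0.601. An annotated gene on the other strand overlaps *COI1*, as for *JAZ10*, *JAZ12*, *MYC2*, *MYB21*, *MYB24* and *MYB57*, and whether the counting used strand is not given in the sources used here, so reads of such partners may not be separable.

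The JAZ genes, whose proteins recruit corepressors to MYC factors in the absence of hormone, were expressed at very unequal levels. *JAZ9* (AT1G70700) led with 470, 449 and 425 TPM in *bpcV*, against 575, 491 and 530 TPM in wild type, while *JAZ8*, which lacks the usual degron, stayed at 4.95 to 7.51 TPM in *bpcV* and 4.70 to 8.56 TPM in wild type. *JAZ4* had 8, 6 and 5 counts in *bpcV* and 9, 3 and 3 counts in wild type and was not tested. None of the 10 JAZ genes tested by edgeR passed the threshold, and DESeq2 called *JAZ6* alone. An unadjusted p under 0.05 was found for 3, all lower in *bpcV*, against 28.3% of all genes in either direction.

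The estimate lay below 0 for 9 of these 10 genes, at a median of -0.22, and above 0 for *JAZ10*, whose product is made in degron-lacking splice forms, at 0.06 ± 0.14 (SE). Genotypes did not overlap for *JAZ2*, *JAZ3*, *JAZ6*, *JAZ9* and *JAZ12*, each lower in *bpcV*, as were 17.6% of all genes tested. *JAZ6* (AT1G72450) had 161, 168 and 163 CPM in *bpcV*, against 225, 195 and 201 CPM in wild type. Its estimate was -0.33 ± 0.09 (SE) with an adjusted p of 0.0413, the smallest of the family. *JAZ2* (AT1G74950) had 76.2, 69.6 and 63.1 CPM in *bpcV*, against 96.9, 84.2 and 86.7 CPM in wild type, with an estimate of -0.36 ± 0.10 (SE) and an adjusted p of 0.0536.

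*JAZ9* had 419, 404 and 387 CPM in *bpcV*, against 517, 452 and 470 CPM in wild type, with an adjusted p of 0.115. *JAZ3* (AT3G17860), one of the first repressors described, had 56.6, 49.8 and 48.7 CPM in *bpcV*, against 57.7, 57.2 and 59.4 CPM in wild type, with an adjusted p of 0.247. *JAZ12* (AT5G20900) had 139, 109 and 135 CPM in *bpcV*, against 146, 153 and 149 CPM in wild type, with an adjusted p of 0.212. The gaps between genotypes in these 3 genes were small beside the levels themselves, and the remaining JAZ genes overlapped. *JAZ1*, the repressor gene studied most, ranged between 138 and 191 CPM in *bpcV* and between 167 and 192 CPM in wild type, with an adjusted p of 0.617. *JAZ5* ranged between 46.4 and 57.9 CPM in *bpcV* and between 56.2 and 61.3 CPM in wild type (adjusted p = 0.190), *JAZ7* between 4.37 and 5.71 CPM in *bpcV* and between 4.48 and 7.27 CPM in wild type (adjusted p = 0.525). *JAZ10* spanned 79.5 to 113 CPM in *bpcV* and 87.7 to 105 CPM in wild type (adjusted p = 0.833), the wider spread being that of the mutant. In sum the family had 1370, 1320 and 1210 TPM in *bpcV*, against 1610, 1420 and 1490 TPM in wild type, without overlap. Within that sum *JAZ9* held 34.5 ± 0.58% in *bpcV* and 35.3 ± 0.54% in wild type (SD, n = 3), and *JAZ1* held 12.9 ± 1.7% in *bpcV* and 12.0 ± 0.29% in wild type. The shares of *JAZ6* did not overlap, at 14.6% or less in each *bpcV* library and 14.8% or more in each wild type library, nor did those of *JAZ2*, at 5.75 ± 0.27% in *bpcV* and 6.35 ± 0.11% in wild type. *JAZ10* held 10.3 ± 1.4% in *bpcV* and 8.64 ± 0.33% in wild type. These shares were not tested either.

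A G-box, CACGTG, lay within the 250 bases before the start of 5 of the 31 genes, 4 of 11 JAZ genes and *AOS*, which is 16.1% against 5.39% of 37897 annotated nuclear genes and 7.42% of the 20623 of them that were tested. The windows around it are shown so that the repressors carrying the motif can be compared, read 5′ to 3′ on the gene's strand with 20 bases on each side, or fewer where the start site comes first, and with the G-box in capitals. *JAZ3* has 2, beginning 140 and 82 bases before its start, chr3:6119547-6119592 and chr3:6119605-6119650. The others are chr1:28150487-28150532 on the minus strand for *JAZ2*, chr2:14572976-14573021 for *JAZ7*, chr1:10596322-10596351 for *JAZ8* and chr5:17099596-17099621 on the minus strand for *AOS*.
*JAZ3* distal: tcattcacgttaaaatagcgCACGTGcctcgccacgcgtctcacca
*JAZ3* proximal: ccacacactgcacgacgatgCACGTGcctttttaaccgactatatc
*JAZ2*: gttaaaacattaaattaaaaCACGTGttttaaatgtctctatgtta
*JAZ7*: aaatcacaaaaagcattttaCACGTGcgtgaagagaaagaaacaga
*JAZ8*: gtgtggaaaaaaacattttcCACGTGagag
*AOS*: gaaggaaaaaagagtcaaagCACGTG
None of these 5 genes was called, with log2 fold changes between -0.36 for *JAZ2* and -0.10 for *AOS*. The GA repeat GAGAGA, or TCTCTC on the other strand, occurred in the same window of 1 of the 31 genes, *LOX4*, beginning 50 bases before its start, against 21.0% of all annotated nuclear genes and 20.0% of those tested. A match in such a window, or the lack of one, describes only these letters and says nothing about binding.

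*MYC2* (AT1G32640), the main activator of jasmonate responses, had 115, 187 and 170 CPM in *bpcV*, against 189, 169 and 173 CPM in wild type. The groups overlapped, with *bpcV* replicate 1 below the other 5 libraries, and the adjusted p was 0.546. *MYC3* (AT5G46760), which acts together with MYC2, had the same low library: 36.9, 71.6 and 68.0 CPM in *bpcV*, against 69.3, 65.7 and 67.4 CPM in wild type. *MYC4*, the third activator, ranged between 23.7 and 29.5 CPM in *bpcV* and between 23.2 and 27.5 CPM in wild type, with overlap. The shares of the 3 genes in their summed TPM nevertheless stayed near each other, with *MYC2* at 61.1 ± 1.3% in *bpcV* and 61.6 ± 0.77% in wild type (SD, n = 3).

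The stamen MYB genes, which drive filament growth and anther opening downstream of jasmonate, had estimates above 0 in the mutant. *MYB21* (AT3G27810) had 211, 215 and 197 CPM in *bpcV*, against 159, 144 and 132 CPM in wild type. All *bpcV* libraries were above all wild type libraries. The estimate of 0.52 ± 0.09 (SE), or 1.43-fold in CPM, had an adjusted p of 0.0114, just beyond the threshold, and 0.00779 without *bpcV* replicate 1. *MYB24* (AT5G40350), its partner in the filament, had 47.6, 69.4 and 39.8 CPM in *bpcV*, against 33.4, 25.0 and 29.3 CPM in wild type. These did not overlap, with *bpcV* replicate 2 highest, and the estimate of 0.84 ± 0.20 (SE) had an adjusted p of 0.0324.

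*MYB57* (AT3G01530), the third and least abundant of them, had 33.8, 54.3 and 46.8 CPM in *bpcV*, against 45.9, 36.5 and 35.3 CPM in wild type. These overlapped, with an adjusted p of 0.512. The expected counts of *MYB21* and *MYB24* were not whole numbers (within 0.001) in any of the 6 libraries, so some of their reads were divided with another gene and their values are uncertain to that extent. Of the 3 stamen MYB genes edgeR called none, and DESeq2 called *MYB21* and *MYB24*. The same pair had an unadjusted p under 0.05, as did 28.3% of all genes.

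**Figure D4:**
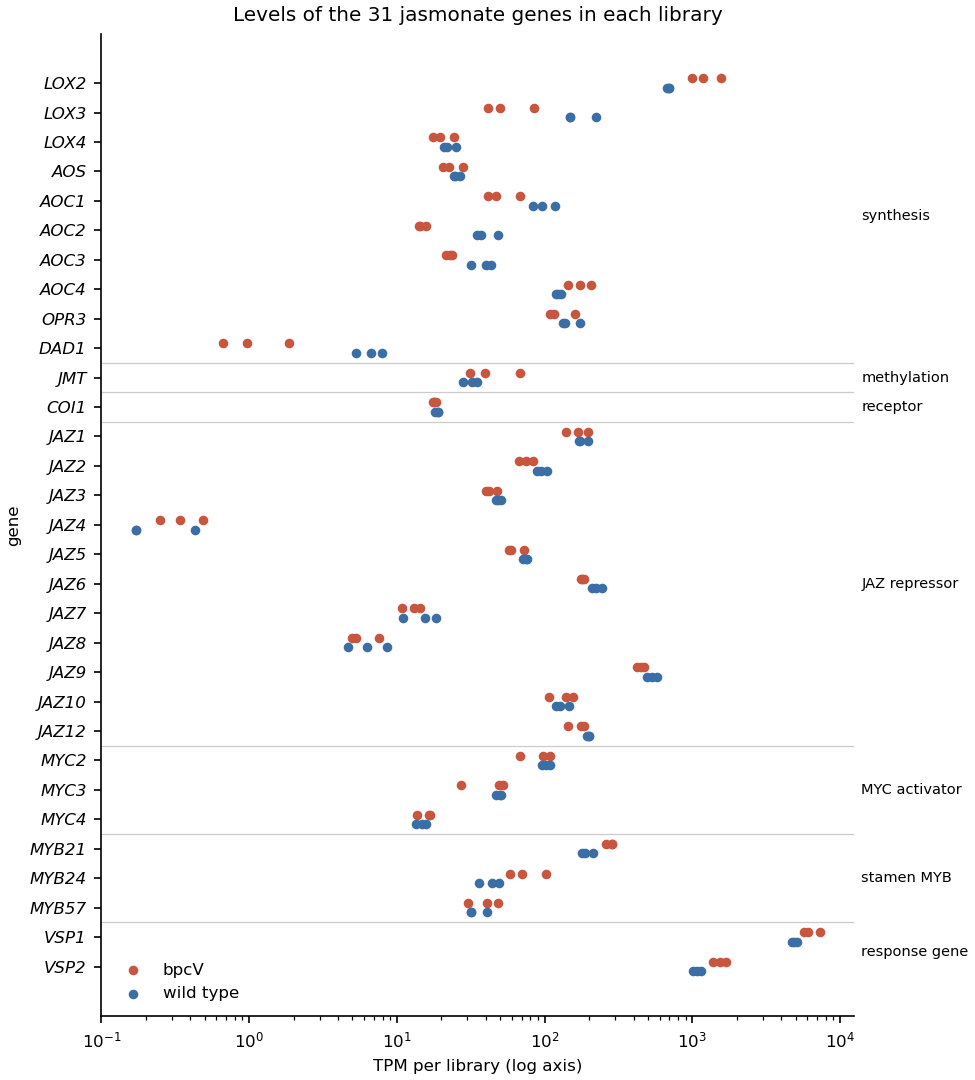
TPM of each of the 31 jasmonate genes (x axis, log scale) in the 3 *bpcV* libraries, upper points of each row, and the 3 wild type libraries, lower points, ordered by role. Levels run from under 0.5 TPM for *JAZ4* to 7293 TPM for *VSP1*, and the rows of *DAD1*, *LOX3* and *AOC2* show the widest gaps between genotypes.

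The vegetative storage protein genes, classical markers of jasmonate response that encode proteins related to acid phosphatases, were the most abundant of the 31 genes. *VSP1* (AT5G24780) had 7293, 5682 and 6028 TPM in *bpcV*, against 4858, 5092 and 4762 TPM in wild type. In CPM it had 5412, 4262 and 4574 in *bpcV*, against 3634, 3896 and 3515 in wild type, without overlap, with an estimate of 0.37 ± 0.13 (SE) and an adjusted p of 0.103. *VSP2* (AT5G24770), its tandem neighbour 5365 bases away, had 1764, 1448 and 1649 CPM in *bpcV*, against 1067, 1231 and 1110 CPM in wild type. These groups were apart as well, and the estimate of 0.51 ± 0.11 (SE) had an adjusted p of 0.0244. Neither passed the threshold in edgeR, and DESeq2 called *VSP2*. Both had an unadjusted p under 0.05, as did 28.3% of all genes.

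Around these genes, 47 further genes of the pathway were listed by function, of which 43 were tested and 8 called, 4 lower and 4 higher, beside 3.89% of all genes. Among 11 tested genes of synthesis and transport only *JAR1*, which joins jasmonic acid to isoleucine, passed: it had 34.2, 34.3 and 36.8 TPM in *bpcV*, against 81.1, 51.0 and 61.5 TPM in wild type, with a log2 fold change of -0.88 ± 0.16 (SE) and an adjusted p of 0.00995. Among 10 breakdown genes *CYP94C1*, a cytochrome P450 that oxidises the conjugate, fell to 3.29, 4.01 and 3.18 TPM in *bpcV*, against 6.29, 6.08 and 6.56 TPM in wild type, with a log2 fold change of -0.86 and an adjusted p of 0.00646. Both genes were thus lower in every *bpcV* library than in any wild type library, as were 17.6% of all genes tested. An estimate below 0 was found for 8 of the 10 breakdown genes, against 10102 of all 20813 genes tested. The other 2, *JOX1* and *JOX4*, had log2 fold changes of 1.02 and 0.24, and neither passed.

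In signalling, 2 of 11 tested genes passed, both bHLH factors known as repressors of jasmonate responses. *JAM1* had 23.4, 23.7 and 23.0 TPM in *bpcV*, against 33.3, 30.4 and 34.1 TPM in wild type, a log2 fold change of -0.49, and *BHLH14* had 79.1, 80.2 and 82.7 TPM in *bpcV*, against 50.9, 49.3 and 55.9 TPM in wild type, a log2 fold change of 0.63. The pair thus lay in opposite directions, with adjusted p of 0.00628 and 0.00282. Of 5 tested response genes outside the stamen, *TAT3*, a tyrosine aminotransferase, was lower, at 3.23, 5.31 and 2.90 TPM in *bpcV*, against 15.1, 20.7 and 10.3 TPM in wild type, with a log2 fold change of -2.02 ± 0.31 (SE) and an adjusted p of 0.00546. *CORI3*, a cystine lyase, was higher, at 290.9, 421 and 323 TPM in *bpcV*, against 125, 151 and 163 TPM in wild type, with a log2 fold change of 1.24 ± 0.16 (SE) and an adjusted p of 0.00290.

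The thionin gene *THI2.1* was also higher, at 661, 573 and 589 TPM in *bpcV*, against 382, 425 and 381 TPM in wild type, with a log2 fold change of 0.62 and an adjusted p of 0.00628. The lectin gene *JR1* had 481, 535 and 518 TPM in *bpcV*, against 359, 336 and 324 TPM in wild type, with a log2 fold change of 0.58 and an adjusted p of 0.00684. Neither gene overlapped between genotypes. None of the 6 filament and late stamen regulators (*ARF6*, *ARF8*, *MYB108*, *MYB26*, *SAUR63* and *AG*) passed in edgeR, the smallest adjusted p among them being 0.0587. Each of the 8 called pathway genes missed the threshold with at least 3 of the 6 libraries left out in turn, at adjusted p of up to 0.0495, and *JAR1* missed it with any library left out.

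Markers of a stamen tissue, the tapetum, had estimates below 0 as well. This held for all 8 tested tapetum markers of 10 (the tapetum nourishes pollen inside the anther), with a median of -0.67. The list summed to 146 to 257 TPM in *bpcV* and 235 to 444 TPM in wild type, with overlap. Among wild type libraries each tested marker was highest in replicate 3. That library was the lowest of its genotype for 15 of the 30 jasmonate genes tested, against 33.5% of all genes tested. *DAD1*, *LOX3* and *AOC3*, but not *AOC2*, were among the 15. None had an adjusted p of 0.01 or less in edgeR, and *AMS*, *LAP6* and *LAP5* had 0.0358, 0.0376 and 0.0457. The defining marker *DYT1* was at or near 0 TPM in both genotypes. Late pollen markers summed to 1430 to 1990 TPM in *bpcV* and 1660 to 1790 TPM in wild type. The part of tapetum content in the values of *DAD1*, *LOX3*, *AOC2* and *AOC3* was not tested.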

How the data were processed

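RNA was taken by the study from 3 biological replicates of *bpcV* and 3 of wild type, with poly-A selection and paired-end HiSeq sequencing. With bowtie2 and the TAIR10 transcript set as target, the authors obtained RSEM estimates and deposited the expected counts per gene, neither normalized nor filtered, and TPM values scaled by effective length and library. Tool versions and strandedness are not given in the sources used here. A further deposited table holds per-library signal, fold changes and p-values of the authors' own comparison and was not used. No label gives a batch.

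Expected counts were rounded, filtered by filterByExpr (minimum count 10, minimum total 15), scaled by TMM factors and tested with edgeR 4.0.16 in R 4.3.3 (glmQLFTest, genotype only, Benjamini-Hochberg over 20813 genes, threshold 0.01), with a common dispersion that corresponds to 12.96% biological variation. A standard error is the absolute log2 fold change over the root of F. CPM use the same factors, and levels of different genes are compared in TPM. Values in every library are given for genes past the threshold or with genotypes apart in CPM, for *DAD1*, *OPR3*, *COI1*, *MYC2*, *MYB21*, *MYB24*, *MYB57*, and for the highest gene of each role, while *AOS*, *MYC3* and *JAZ4* were added after their values were seen. Pathway genes past the threshold are named. The genes, the lists and the rule were chosen with earlier results of these data known. Promoters and positions come from TAIR10.1 of RefSeq, in which 31912 of 32678 identifiers were found, and JAZ protein motifs were not analysed here.

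Alternatives were RLE or upper-quartile factors, library totals, no filter, at least 10 counts in every library, DESeq2 1.42.0, edgeR's likelihood ratio test and newer quasi-likelihood form, limma 3.58.1 on log2(TPM + 1) and log2(TPM + 0.1) at a mean TPM of at least 1, an FDR of 0.05, a replicate block, and each library left out. Figures used Python 3.11.15, numpy 2.4.6, pandas 2.3.3 and matplotlib 3.10.9. Replicates are separate biological samples per the methods. In edgeR, p-values judge the genotype difference against the variation between these samples, moderated across genes.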

Additional observations from a re-analysis of the deposited data

How the results depend on the processing

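*AOC2* passed the threshold of 0.01 in all 17 refits (11 of other settings and 6 with a library left out), *DAD1* in 13, *LOX3* and *AOC3* in 10 each, and all 4 kept their direction. The number of jasmonate genes called was 4 and became 7 with library totals (*LOX2*, *AOC1* and *MYB21* added), 11 with DESeq2, 10 with the likelihood ratio test, 2 with limma at either pseudocount (*AOC2* and *DAD1*), 11 at an FDR of 0.05 and 1 to 6 with each library left out. Of these, the genes lower in *bpcV* were 2 with limma and 1 to 4 with a library left out. Those higher, 0 before, were 2 with upper-quartile factors, with library totals and without a filter (*LOX2* and *MYB21* each time), 5 with DESeq2, 5 with the likelihood ratio test, 5 at an FDR of 0.05 and 0 to 2 with a library left out. Over all genes, 809 became 1814 with DESeq2, 2233 with the likelihood ratio test, 532 with limma and the smaller pseudocount, 2506 at an FDR of 0.05 and 167 to 1249 with a library left out. The 8 called pathway genes became 5 and 4 with limma at the larger and smaller pseudocount, and 0 to 8 with a library left out. The cause of these changes was not tested. Other scalings moved the median log2 fold change of all genes by less than 0.1.

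Same-numbered libraries of the genotypes had correlations of deviations of -0.0193, -0.0129 and 0.1767. Those of differently numbered libraries ranged between -0.1387 and 0.1334. So few libraries cannot decide whether the replicate numbers pair them. With the replicate number as a block, 408 genes, 2 jasmonate genes, both lower (*AOC2* and *DAD1*), and 2 pathway genes were called.

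Direction changed only with a library left out, for genes that never passed there. The log2 fold change ranged between -0.23 and 0.00 for *JAZ1*, -0.33 and 0.12 for *JAZ8*, -0.06 and 0.19 for *JAZ10*, -0.31 and 0.01 for *MYC2*, -0.36 and 0.05 for *MYC3*, -0.11 and 0.07 for *JASSY*, -0.41 and 0.01 for *JOX2*, -0.01 and 0.44 for *JOX4*, -0.38 and 0.07 for *ST2A*, -0.05 and 0.04 for *NINJA*, -0.15 and 0.02 for *JAM2*, -0.19 and 0.02 for *JAM3*, -0.30 and 0.14 for *ERF1*, and -0.19 and 0.01 for *ARF6*. Depth limits *DAD1*, which had 11 to 27 counts in *bpcV*, and left *JAZ4* untested.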

Other observations

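The libraries of each genotype were not ordered alike across the jasmonate genes. Of the 30 genes tested, *bpcV* replicate 2 was the highest *bpcV* library for 19, replicate 1 for 11 and replicate 3 for 0, against 33.8, 39.2 and 27.1% of all genes tested. In wild type, replicate 1 was the highest library for 20 genes, replicate 2 for 8 and replicate 3 for 2, against 34.3, 34.2 and 31.5% of all genes. *LOX2*, *LOX3*, *AOC1*, *OPR3*, *DAD1*, *MYB24* and *JMT* were all highest in *bpcV* replicate 2, and all of these but *JMT* were also highest in wild type replicate 1. Within *bpcV* the median coefficient of variation was 16.4% over the jasmonate genes and 12.7% over all genes tested, and in wild type it was 8.29% and 6.68%. Over all genes, the second principal component, with 20.3% of the variance, placed *bpcV* replicates 1 and 2 at opposite ends.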
